A study of Rattus norvegicus with 6 samples.

Results

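The ribosome biogenesis factors described here are 35 genes whose products copy ribosomal RNA from its genes or cut, modify, fold and assemble it in the nucleolus. They were chosen by symbol in the deposited FPKM table (fragments corrected for transcript length and for library size), in which each of the 35 has 1 row among 25926. RNA-seq of whole liver was compared between 3 Sprague-Dawley rats fed for 7 days by total parenteral nutrition (TPN, in which food is replaced by an infusion into a vein) and 3 Control rats given 0.9% saline. The labels do not state whether saline was given for the same number of days. All 6 rats are labelled as 4 weeks old. The TPN rats carry the disease label PNALD, parenteral nutrition-associated liver disease, and the Control rats the label normal. Values in groups of 3 are given for rats 1, 2 and 3 in that order. Whether the rats were bred or handled together is not stated. The p-values set the difference between the groups against the spread between rats within a group, and cover these 6 animals only.

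Ribosome assembly begins when RNA polymerase I copies the ribosomal genes into a long precursor. Small nucleolar RNAs of the box C/D class guide ribose methylation and those of the box H/ACA class guide pseudouridylation, while large sets of assembly factors cut and fold the precursor into the small and the large subunit. The transcription factor Myc is known to activate many of these genes in growing cells. Hepatocytes, which secrete most plasma proteins, carry many ribosomes.

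Of the 35 genes, 34 were higher on average in TPN livers, by a median of 0.47 on the log2(FPKM + 1) scale, but no gene passed the test across all genes. Myc was the exception, with a log2 fold change of -0.098. In 15 genes all 3 TPN livers lay above all 3 Control livers, which is 42.9% of the members, and in 0 genes all lay below. Over all 11362 features tested, 8.02% lay above in this way, 9.09% lay below, 50.9% had a positive log2 fold change and the median was 0.0065. The members were chosen with earlier results of these data known, so these shares describe them and are no test. All 35 members passed the filter of a mean of at least 1 FPKM. With limma, 0 of 35 had a Benjamini-Hochberg adjusted p under 0.05, against 0.246% of all features (0.0264% higher and 0.22% lower), and the members' adjusted p ran from 0.22 to 0.921. At an unadjusted p under 0.05, 16 members were higher and 0 lower, against 4.44% and 7.01% of all features.

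**Figure D1:**
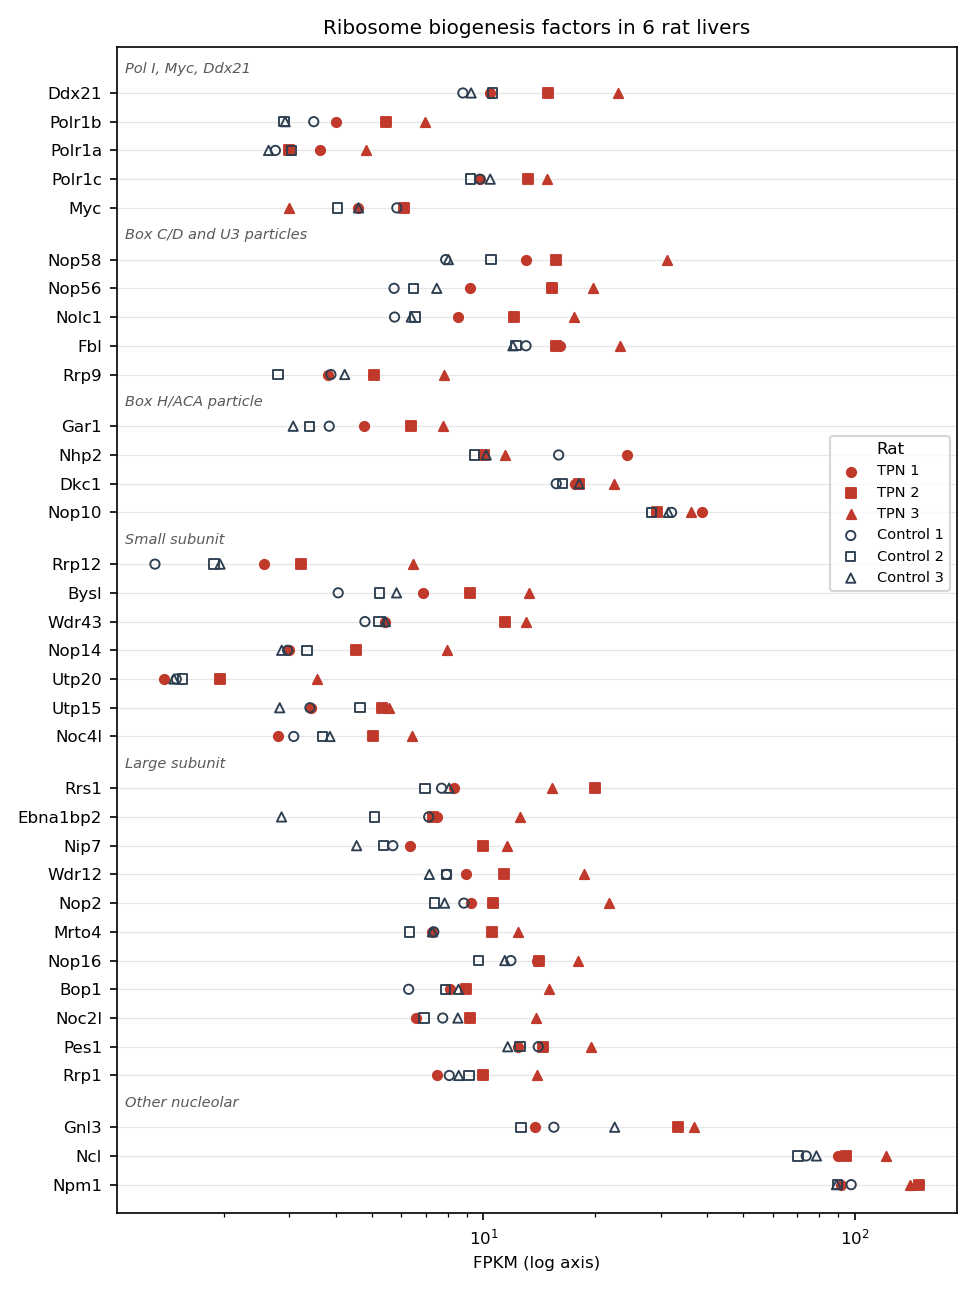
FPKM of the 35 genes on a log axis, 1 row per gene grouped by role, with filled red symbols for the 3 TPN livers and open dark symbols for the 3 Control livers. TPN 3, the red triangle, is the rightmost symbol in 30 of 35 rows, and in the Myc row it is the leftmost.

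The 3 TPN livers differed from each other more than the Control livers did. Relative to the Control mean of each gene, the median ratio of the 35 genes was 1.10 in TPN 1, 1.46 in TPN 2 and 2.01 in TPN 3. In TPN 1, 18 members lay above all 3 Control livers, against 23.8% of all features. That count was 31 in TPN 2, against 24.5% of all features, and 33 in TPN 3, against 46.7%. The background is thus high in TPN 3, whose median over all features lay 0.13 above the Control mean on the log2 scale, while those of TPN 1 and TPN 2 lay at -0.090 and -0.046. TPN 3 was the highest of the 6 livers for 30 members, against 37.3% of all features. The members' SD of FPKM was larger in TPN than in Control for 35 of 35 genes, against 66.8% of all features. Their median coefficient of variation was 34.1% in TPN and 9.62% in Control.

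**Figure D2:**
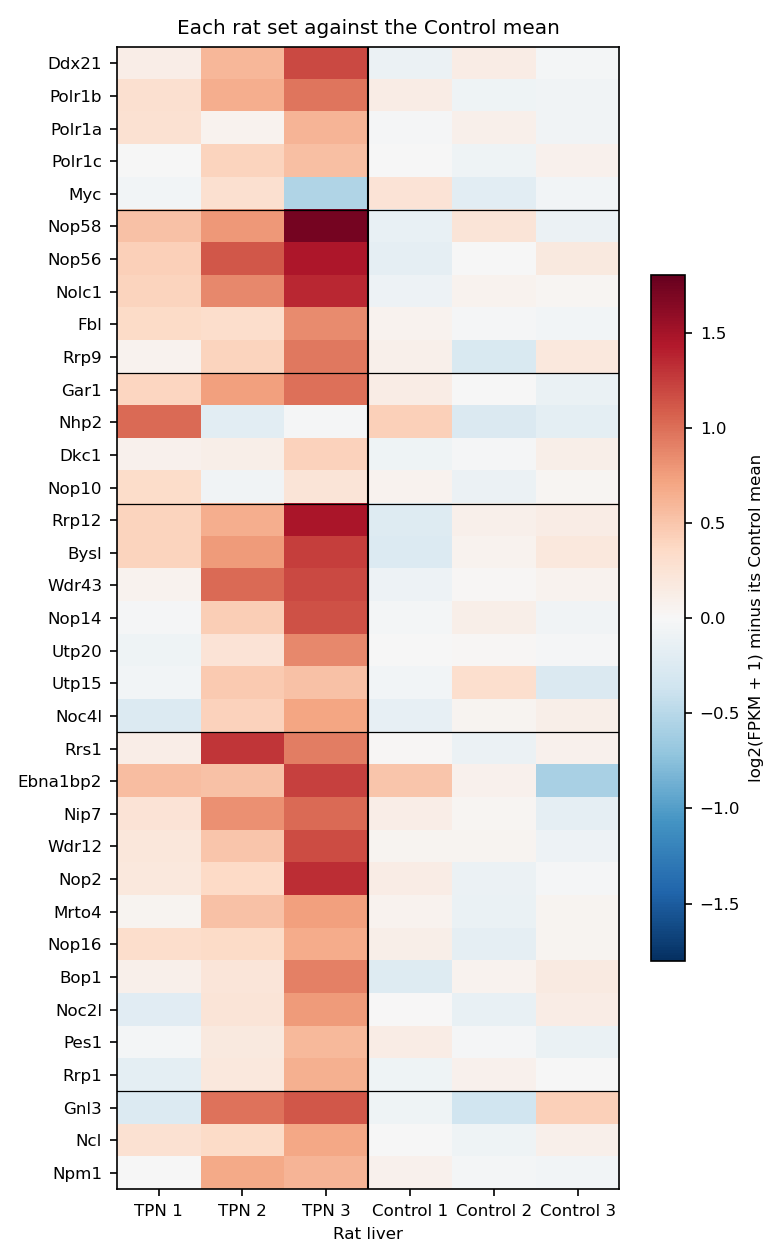
Heat map of log2(FPKM + 1) minus the Control mean of the same gene, with genes in rows grouped by role and the 3 TPN livers left of the 3 Control livers. Red means above the Control mean. The TPN 3 column is the darkest in most rows, and the medians of the members are 0.12, 0.45 and 0.91 in TPN 1, TPN 2 and TPN 3.

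Single livers bore on these counts. Pearson correlations of log2(FPKM + 1) were 0.942 to 0.968 among TPN livers, 0.961 to 0.981 among Control livers and 0.92 to 0.961 between the groups. TPN 1 correlated more closely with Control 2 (0.958) than with TPN 2 (0.953) or TPN 3 (0.942). Acute-phase genes, 17 of which were tested, stood highest in TPN 1 and Control 2, at a median of 1.82, 0.85 and 0.58 above the Control mean in TPN livers, against -0.51, 0.97 and -0.46 in Control livers. With TPN 1 and Control 2 both left out, 31 members lay above without overlap, against 24.1% of all features, and the members' median was 0.63. Without TPN 1 alone the count was 30, against 18.5% of all features. Without TPN 3 it was 15, against 10.1%, and the median was 0.33. The 16 members at an unadjusted p under 0.05 (4.44% of all features) became 27 without TPN 1 (7.08%), 12 without TPN 2 (4.76%) and 9 without TPN 3 (3.43%). They became 8 without Control 1 (1.94%), 8 without Control 2 (4.44%) and 9 without Control 3 (2.36%). The part of the acute-phase state in the members' values was not tested.

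Markers of other cell types were compared as summed FPKM. In whole liver, fewer cells of a type and less RNA per cell cannot be told apart. The 8 hepatocyte genes summed to between 39959 and 67018 in TPN livers, against 59770 to 80200 in Control livers. Among them Alb, albumin, was abundant in all 6 livers and lowest in TPN 1. It measured 12828, 39337 and 30697 FPKM in TPN livers, against 47966, 32506 and 48388 FPKM in Control livers. Kupffer cell genes (8 with a row) summed to 353 to 519 in TPN livers, against 288 to 437 in Control livers. The neutrophil list (6) ranged over 14.3 to 41.4 in TPN livers, against 5.90 to 25.3 in Control livers, with Elane and Mpo, the granule enzymes, at or under 0.14 FPKM in every liver. The lymphoid list (8) ranged over 2.47 to 4.94 in TPN livers, against 2.70 to 4.39 in Control livers. Endothelial genes (6) gave 58.4 to 74.9 in TPN livers, against 48.5 to 80.2 in Control livers, and stellate genes (8) 32.8 to 45.2 in TPN livers, against 42.9 to 68.3 in Control livers. Groups did not overlap for the cholangiocyte list (6), with 6.42 to 8.14 in TPN livers, against 10.7 to 14.02 in Control livers. They did not overlap either for the erythroid list (7), with 230 to 577 in TPN livers, against 2124 to 2417 in Control livers. The 17 cell cycle genes with a row summed to between 23.6 and 27.4 FPKM in TPN livers, against 48.4 to 72.5 FPKM in Control livers. Sums can hide single genes in lists whose sums overlapped. Of 8 Kupffer genes tested, 3 lay above without overlap and 0 below. Below without overlap lay 2 of 7 stellate and 2 of 8 hepatocyte genes, and 0 lay above. Over all features tested, 8.02% lay above and 9.09% below in this way. The part of these lists in the members' values was not tested.

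The promoters of the members were read for the E-box CACGTG, the sequence that Myc and its partner Max bind, because 34 members had positive log2 fold changes and Myc did not. RefSeq windows of GRCr8, from 250 bases before to 50 bases after the gene start, were matched by symbol for 31 of 35 members, all but Bop1, Myc, Rrs1 and Wdr43. CACGTG reads the same on both strands and was found in 10 of the 31 windows, which is 32.3%. It was found in 6.42% of all 33469 windows, in 7.02% of the protein-coding ones and in 9.55% of those of features tested. Counting only the 250 bases before the start, it was found in 16.1% of the member windows and in 8.24% of those of features tested. The 10 sites follow with up to 10 bases on each side, 5′ to 3′ on the strand of the gene, the E-box in capitals. The first 5 lie before the gene start (184, 127, 50, 25 and 16 bases before it) and the others after it (at bases 4, 22, 31, 33 and 39).
Dkc1, chrX:157751457-157751482, plus strand: cgtcccggcgCACGTGcgggccccac
Utp20, chr7:25102961-25102986, minus strand: gcactagctaCACGTGagaaaaagca
Pes1, chr14:83074286-83074311, plus strand: ctaagcggggCACGTGcggtaggaag
Gnl3, chr16:6219792-6219817, minus strand: ttccagttcgCACGTGgcgcccgaga
Rrp1, chr20:10260554-10260579, plus strand: gcgtgacgcaCACGTGtcgtcactcg
Rrp12, chr1:250655300-250655325, minus strand: tgagaatacaCACGTGggttctgctg
Fbl, chr1:92597418-92597443, plus strand: cgcttttttcCACGTGtgaaagcctg
Ebna1bp2, chr5:137433554-137433579, plus strand: gtcttgctggCACGTGgagtggcagc
Bysl, chr9:20880363-20880388, plus strand: gccggcttcaCACGTGtaaactttgt
Nop2, chr4:159618994-159619015, plus strand: tccccaagtgCACGTGgagcgg

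For longer context, the 250 bases before the start are shown for Gnl3 and Rrp1, where the E-box is nearest before the start, and for Nop56, which had the smallest p among the members and no CACGTG in its window.
Gnl3, chr16:6219783-6220032, minus strand: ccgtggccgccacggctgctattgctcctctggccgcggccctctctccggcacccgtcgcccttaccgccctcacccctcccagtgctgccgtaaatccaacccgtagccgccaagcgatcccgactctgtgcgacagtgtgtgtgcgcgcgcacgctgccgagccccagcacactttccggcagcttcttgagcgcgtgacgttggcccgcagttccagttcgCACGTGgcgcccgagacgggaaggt
Rrp1, chr20:10260330-10260579, plus strand: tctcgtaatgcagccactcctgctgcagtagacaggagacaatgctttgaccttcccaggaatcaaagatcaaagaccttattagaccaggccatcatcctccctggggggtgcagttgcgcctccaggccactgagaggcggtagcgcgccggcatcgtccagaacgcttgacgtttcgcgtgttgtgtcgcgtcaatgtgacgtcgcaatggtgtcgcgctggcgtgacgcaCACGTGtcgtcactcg
Nop56, chr3:137929929-137930178, plus strand: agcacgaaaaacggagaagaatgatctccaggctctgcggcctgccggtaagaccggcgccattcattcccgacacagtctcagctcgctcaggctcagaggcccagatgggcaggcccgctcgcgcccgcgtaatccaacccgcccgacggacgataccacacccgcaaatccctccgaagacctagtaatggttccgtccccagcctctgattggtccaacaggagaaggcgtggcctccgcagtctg
The median log2 fold change was 0.56 for the 10 members with the E-box and 0.44 for the 21 without it, and the ranges (0.20 to 0.84 and 0.17 to 1.01) overlapped. A match describes these letters only, and the absence of one says nothing about binding.

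Myc and the polymerase genes act at the start of the pathway. Myc measured 4.58, 6.09 and 2.99 FPKM in TPN livers, against 5.84, 4.05 and 4.61 FPKM in Control livers. The groups overlapped, and TPN 3, which was highest for most members, had the lowest Myc of all 6 livers (log2 fold change -0.098, SE 0.23, limma adjusted p = 0.921). Its sign turned without Control 1 or without TPN 3, to 0.023 and 0.12. Polr1b, the second largest subunit of RNA polymerase I, measured 4, 5.47 and 6.97 FPKM in TPN livers, against 3.49, 2.9 and 2.93 FPKM in Control livers. All TPN values lay above all Control values (log2 fold change 0.64, SE 0.19, limma adjusted p = 0.295). Polr1c, a subunit shared with RNA polymerase III, measured 9.79, 13.2 and 14.8 FPKM in TPN livers, against 9.78, 9.21 and 10.4 FPKM in Control livers. TPN 2 and TPN 3 were above the Control livers, and TPN 1 was within them. Polr1a, the largest subunit, averaged 3.81 ± 0.924 FPKM in TPN and 2.81 ± 0.211 FPKM in Control (SD, n = 3 each). Ddx21, a nucleolar RNA helicase that takes part in copying and processing ribosomal RNA, measured 10.4, 14.9 and 23.1 FPKM in TPN livers, against 8.8, 10.6 and 9.26 FPKM in Control livers. Only the TPN 1 value of Ddx21 lay inside the range of the Control livers.

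The list of box C/D and U3 proteins, which also holds Nolc1, had the highest median log2 fold change of the 6 roles. It was 0.87 over 5 genes (range 0.47 to 1.01), the value of Nolc1 itself, with 4 of 5 above without overlap. For this and the roles below, the share above without overlap over all features tested was 8.02%. Snu13, a further core protein of box C/D particles, was counted in another list, with a log2 fold change of 0.37. Nop56 and Nop58 are the paired scaffold proteins of the box C/D particles and Fbl, fibrillarin, is their methyltransferase. Nop58 measured 13.01, 15.7 and 31.2 FPKM in TPN livers, against 7.91, 10.5 and 8.04 FPKM in Control livers. Nop56 measured 9.18, 15.3 and 19.8 FPKM in TPN livers, against 5.74, 6.49 and 7.48 FPKM in Control livers. For both, every TPN liver was above every Control liver, and TPN 3 stood highest. The ratio of group means was 2.27 for Nop58 (log2 fold change 1.01, SE 0.31, limma adjusted p = 0.295) and 2.24 for Nop56 (log2 fold change 1.002, SE 0.26, limma adjusted p = 0.22). Fbl measured 16.04, 15.7 and 23.3 FPKM in TPN livers, against 13.02, 12.2 and 12.00 FPKM in Control livers. The Fbl groups did not overlap, with a smaller ratio of means of 1.48 (log2 fold change 0.50, SE 0.19, limma adjusted p = 0.376). Nolc1, a nucleolar chaperone of both classes of particle, measured 8.52, 12.1 and 17.5 FPKM in TPN livers, against 5.76, 6.54 and 6.39 FPKM in Control livers. Its groups did not overlap (log2 fold change 0.87, SE 0.24, limma adjusted p = 0.241). Rrp9, a protein of the U3 particle that guides the first cuts, averaged 5.58 ± 2.07 FPKM in TPN and 3.64 ± 0.748 FPKM in Control (SD, n = 3 each), with TPN 1 inside the range of the Control livers.

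The 4 box H/ACA proteins had a median log2 fold change of 0.24 (range 0.17 to 0.71), and 1 of 4 was above without overlap. Gar1 measured 4.77, 6.4 and 7.8 FPKM in TPN livers, against 3.84, 3.4 and 3.07 FPKM in Control livers. Every TPN liver was above every Control liver (log2 fold change 0.71, SE 0.19, limma adjusted p = 0.225). Dkc1, dyskerin, the pseudouridine synthase of the particle, measured 17.6, 18.1 and 22.5 FPKM in TPN livers, against 15.7, 16.4 and 18.1 FPKM in Control livers. TPN 3 alone lay above the Control livers. Nop10, a small structural protein, measured 38.8, 29.3 and 36.2 FPKM in TPN livers, against 32.1, 28.4 and 31.5 FPKM in Control livers. TPN 2 lay inside the range of the Control livers. Nhp2, which also sits in telomerase, was high in 1 liver of each group, with 24.4, 10.1 and 11.4 FPKM in TPN livers, against 15.9, 9.47 and 10.2 FPKM in Control livers. The Nhp2 sign turned without TPN 1, to -0.099.

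Ratios of FPKM between partners of one particle compare levels per length within a liver. Gar1 relative to Dkc1 was 0.271, 0.354 and 0.346 in TPN livers, against 0.245, 0.208 and 0.17 in Control livers, without overlap. Nop10 relative to Dkc1 was 2.2, 1.62 and 1.61 in TPN livers, against 2.04, 1.73 and 1.74 in Control livers, and Nhp2 relative to Dkc1 1.38, 0.556 and 0.508 in TPN livers, against 1.01, 0.579 and 0.562 in Control livers. The groups overlapped in both. Nop58 relative to Fbl was 0.811, 1 and 1.34 in TPN livers, against 0.608, 0.856 and 0.67 in Control livers. Nop56 relative to Fbl was 0.573, 0.977 and 0.849 in TPN livers, against 0.441, 0.53 and 0.624 in Control livers. In each of these box C/D ratios 1 TPN liver, TPN 1, lay inside the range of the Control livers. Wdr12 relative to Pes1, partners in the PeBoW complex of large subunit assembly, was 0.726, 0.783 and 0.956 in TPN livers, against 0.566, 0.636 and 0.615 in Control livers, without overlap, while Bop1 relative to Pes1 overlapped with 0.656, 0.619 and 0.768 in TPN livers, against 0.448, 0.631 and 0.737 in Control livers. These ratios carry no test, and 3 against 3 cannot give an exact permutation p under 0.1.

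**Figure D3:**
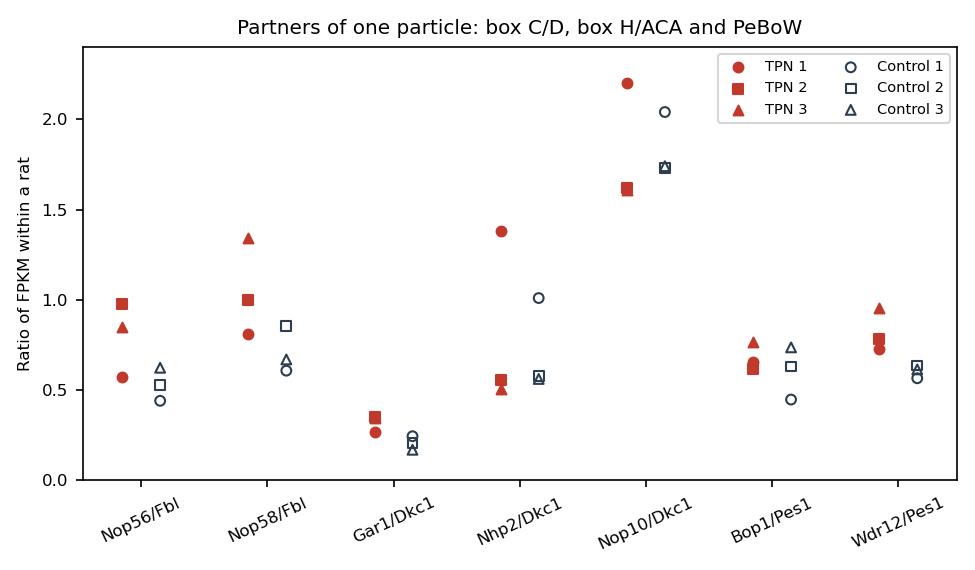
Ratios of FPKM between partners of the box C/D, box H/ACA and PeBoW particles within each liver, on a linear axis from 0, with filled red symbols for TPN livers left of open dark symbols for Control livers. Gar1/Dkc1 and Wdr12/Pes1 are the pairs whose groups do not overlap.

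Log2 fold changes were positive for 7 of 7 small subunit factors (median 0.52), and 2 of them were above without overlap. Rrp12, which takes part in the export of pre-ribosomes, measured 2.57, 3.24 and 6.44 FPKM in TPN livers, against 1.3, 1.88 and 1.95 FPKM in Control livers. Its groups did not overlap, and its ratio of means of 2.38 was the highest of the 35 (log2 fold change 0.84, SE 0.27, limma adjusted p = 0.325). Bysl, bystin, a late small subunit factor, measured 6.89, 9.19 and 13.2 FPKM in TPN livers, against 4.06, 5.24 and 5.83 FPKM in Control livers. The groups did not overlap here either (log2 fold change 0.80, SE 0.24, limma adjusted p = 0.275). Wdr43, of the early processome, measured 5.41, 11.4 and 12.98 FPKM in TPN livers, against 4.8, 5.23 and 5.44 FPKM in Control livers. TPN 1 reached the range of the Control livers, and the other TPN livers were well above it. Utp15 and Utp20, also of the processome, and the partners Nop14 and Noc4l had log2 fold changes of 0.31, 0.34, 0.52 and 0.29, with overlap in each. Noc4l measured 2.81, 5.05 and 6.42 FPKM in TPN livers, against 3.08, 3.69 and 3.86 FPKM in Control livers, with TPN 1 below every Control liver.

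The large subunit factors had 11 of 11 positive values (median 0.44), with 6 above without overlap. Rrs1, which helps to bring the 5S particle into the large subunit, measured 8.33, 19.96 and 15.3 FPKM in TPN livers, against 7.71, 6.96 and 8.08 FPKM in Control livers. TPN 2, not TPN 3, was its highest liver, and the groups did not overlap (log2 fold change 0.78, SE 0.28, limma adjusted p = 0.366). Nip7, an RNA-binding factor of pre-rRNA processing, measured 6.32, 9.95 and 11.6 FPKM in TPN livers, against 5.7, 5.37 and 4.55 FPKM in Control livers. Nop2, an RNA methyltransferase of the large subunit, measured 9.24, 10.6 and 21.7 FPKM in TPN livers, against 8.85, 7.39 and 7.86 FPKM in Control livers. Neither gene's groups overlapped, although TPN 1 was close to the highest Control liver for Nop2. Ebna1bp2, whose yeast relative acts in large subunit assembly, measured 7.48, 7.31 and 12.5 FPKM in TPN livers, against 7.12, 5.08 and 2.86 FPKM in Control livers. Its Control livers were the more spread in proportion, and the groups stood apart by a small gap. Nop16 measured 13.95, 14.1 and 17.9 FPKM in TPN livers, against 11.8, 9.71 and 11.4 FPKM in Control livers. Wdr12, of the PeBoW complex, measured 8.99, 11.3 and 18.7 FPKM in TPN livers, against 7.95, 7.97 and 7.15 FPKM in Control livers. Both lay above the Control livers in every TPN liver. Its partner Pes1, the most abundant of the 11, measured 12.4, 14.5 and 19.5 FPKM in TPN livers, against 14.04, 12.5 and 11.6 FPKM in Control livers. For Pes1, TPN 1 was inside the range of the Control livers and TPN 2 just above it. Bop1, the third PeBoW protein, Mrto4, which holds the place of a stalk protein, Noc2l and Rrp1 had log2 fold changes of 0.41, 0.44, 0.27 and 0.22, with overlap in each.

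Npm1 and Ncl had the highest FPKM of the 35 in both groups. Npm1, nucleophosmin, a chaperone of ribosomal proteins, measured 91.6, 149 and 141 FPKM in TPN livers, against 97.7, 89.9 and 89.2 FPKM in Control livers. TPN 2 and TPN 3 stood above the Control livers, and TPN 1 among them. Ncl, nucleolin, which binds nascent ribosomal RNA, measured 90.2, 94.4 and 121 FPKM in TPN livers, against 73.9, 70.2 and 78.8 FPKM in Control livers. Its groups did not overlap (log2 fold change 0.44, SE 0.19, limma adjusted p = 0.428). Gnl3, nucleostemin, a nucleolar GTPase, averaged 28.02 ± 12.5 FPKM in TPN and 16.9 ± 5.11 FPKM in Control (SD, n = 3 each), and TPN 1 overlapped with the Control livers.

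**Figure D4:**
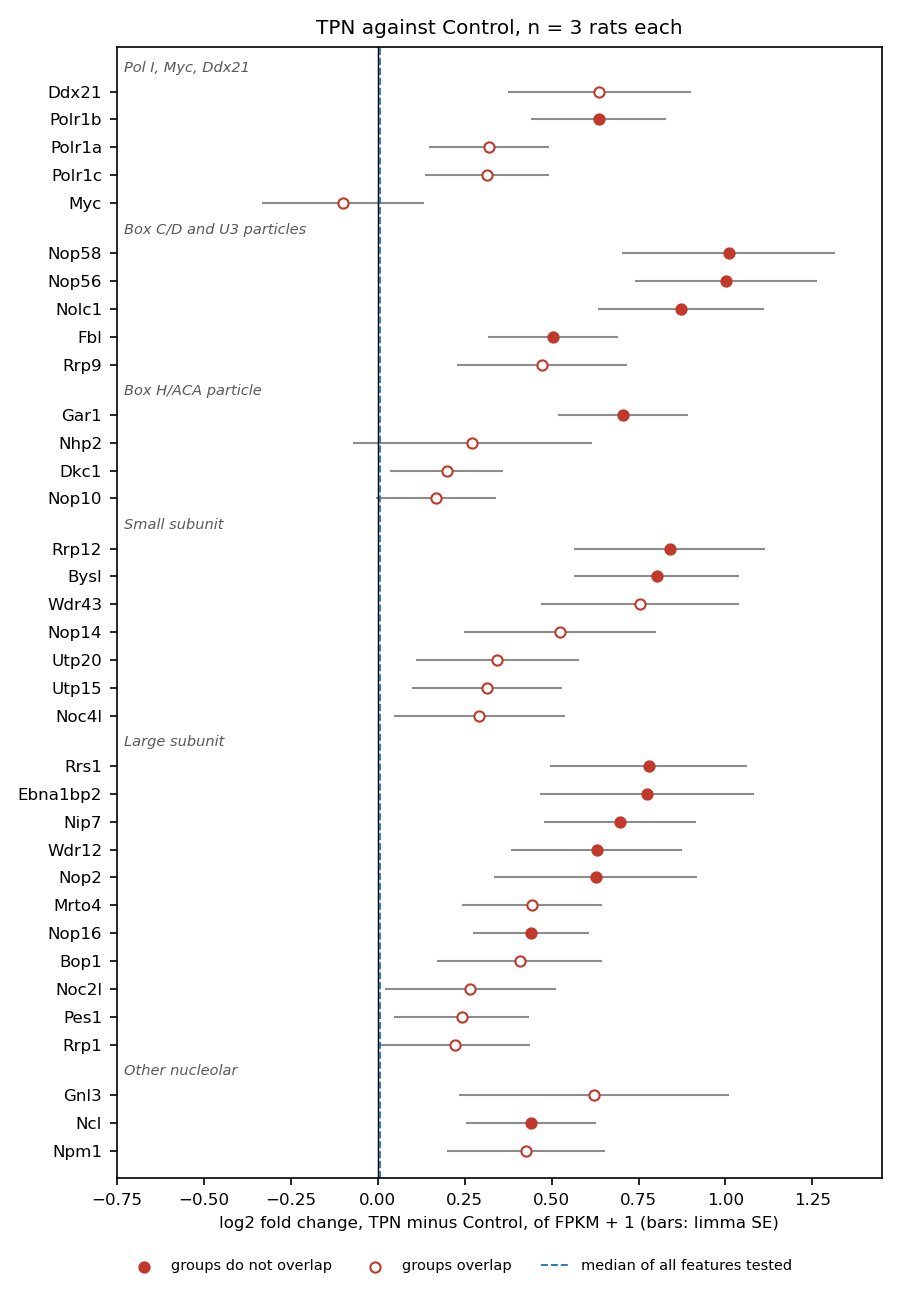
Log2 fold change of FPKM + 1, TPN minus Control, with limma's standard error, for the 35 genes grouped by role; filled points mark the 15 genes whose groups do not overlap. All points but that of Myc lie right of 0, and the dashed line at 0.0065 is the median of all 11362 features tested.

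Some of these values are uncertain because reads can be shared. In the GRCr8 annotation, 17 members have pseudogenes named after them, among them Npm1 with 20, Nip7 with 16, Rrs1 with 14 and Ddx21 with 9. Small nucleolar RNA and microRNA genes left aside, another gene overlaps 9 members, such as Idh3b at Nop56 and Ddx51 at Noc4l. The partner ratios without overlap between groups are touched as well. Dkc1 has 3 such pseudogenes, Pes1 has 6 and Wdr12 has 2, and Carf overlaps Wdr12. Strandedness is not given in the sources used here. Of the 15 members without overlap between groups, 5 had neither a pseudogene named after them nor an overlapping gene so counted: Bysl, Ebna1bp2, Gar1, Nolc1 and Nop58.

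Other genes of the pathway were read from 5 further lists of 132 genes. Like the members, they were chosen with earlier results of these data known. Of their rows, 128 were tested. Of these, 111 had positive log2 fold changes (median 0.29), 39 lay above without overlap (30.5%, against 8.02% of all features), 0 lay below and 0 passed limma's test (smallest adjusted p = 0.209). That smallest value belonged to Cd3eap, which is among the 39. Its Control mean of 0.886 FPKM was under the filter of 1 FPKM, which it passed only through its TPN values (mean 2.14 FPKM). TPN 3 was the highest liver in 107 of the 128 rows, or 83.6%. Among 45 small subunit factors, 43 were positive and 13 above without overlap (median 0.27). Tsr1, a late small subunit factor, measured 12.9, 18.2 and 25.9 FPKM in TPN livers, against 10.6, 10.1 and 11.2 FPKM in Control livers, and the kinase Riok1 5.3, 7.65 and 8.43 FPKM in TPN livers, against 3.8, 4.4 and 5.1 FPKM in Control livers. Large subunit factors filled 46 rows, with 40 positive and 16 above without overlap (median 0.35). Gtpbp4, a nucleolar GTPase, measured 3.92, 6.72 and 8.55 FPKM in TPN livers, against 2.79, 3.68 and 2.72 FPKM in Control livers, and Ppan 7.59, 13.4 and 15.6 FPKM in TPN livers, against 5.58, 7.25 and 5.34 FPKM in Control livers. The genes named from this and each further list were picked among those without overlap. Their position above the Control livers is therefore fixed by the choice and is no result.

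Of 11 further RNA polymerase I genes, 9 were positive and 5 above without overlap (median 0.39). For this and the next lists, the shares over all features tested were 50.9% and 8.02%. Of the 5, Cd3eap passed the filter only through its TPN values, as its Control mean was 0.886 FPKM. Cd3eap, a polymerase I subunit, measured 1.75, 2.92 and 1.75 FPKM in TPN livers, against 0.9, 0.992 and 0.766 FPKM in Control livers, and Rrn3, the factor that brings the polymerase to its promoter, 6.68, 9.16 and 8.81 FPKM in TPN livers, against 5.87, 5.61 and 5.73 FPKM in Control livers. The list of assembly factors of small nucleolar particles also holds Snu13 and Tcof1. It was mixed, with 7 of 11 positive, 2 above without overlap (Snu13 and Tcof1) and a median of 0.16. Snu13, a core protein of box C/D particles, measured 27.6, 31.3 and 45.2 FPKM in TPN livers, against 27.3, 26.8 and 23.9 FPKM in Control livers, and Tcof1, treacle, 2.5, 2.2 and 2.18 FPKM in TPN livers, against 1.93, 1.57 and 1.14 FPKM in Control livers. The RNA exosome, which trims precursor ends, had 12 of 15 positive and 3 above without overlap (median 0.21). Its subunit Exosc6 measured 3.28, 6.09 and 3.9 FPKM in TPN livers, against 1.53, 2.93 and 1.68 FPKM in Control livers, and its cofactor Mphosph6 7.33, 6.67 and 10.6 FPKM in TPN livers, against 4.65, 5.54 and 5.3 FPKM in Control livers.

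Among partners and antagonists of Myc, 7 of 11 tested were positive, with 0 above or below without overlap and a median of 0.068. A separate list of other genes known as Myc targets had 16 of 17 positive and 3 above without overlap (median 0.28). Over all features tested, 50.9% were positive and 8.02% lay above without overlap. Odc1, which starts polyamine synthesis, measured 26.2, 22.7 and 35.6 FPKM in TPN livers, against 13.5, 15.9 and 19.3 FPKM in Control livers. Pa2g4, a growth-related nucleolar protein, measured 26.4, 29.7 and 40.7 FPKM in TPN livers, against 23.3, 21.1 and 23.9 FPKM in Control livers. None passed limma's test (adjusted p = 0.262 for Odc1 and 0.426 for Pa2g4), and 0 of both lists passed over all genes.

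**Figure D5:**
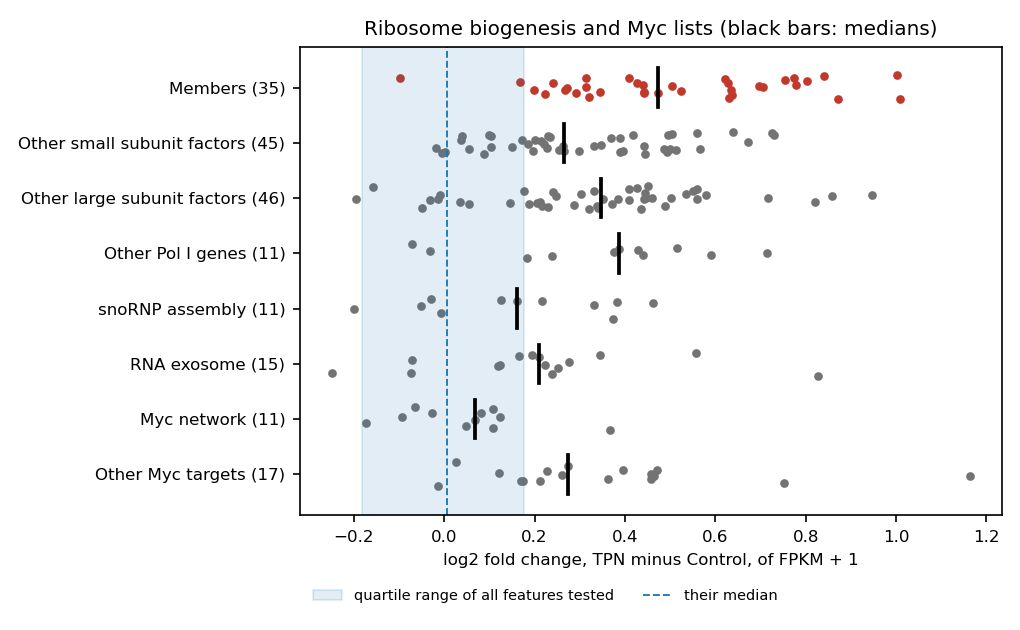
Log2 fold change of FPKM + 1, TPN minus Control, for each gene (points) of the members, the 5 further pathway lists and both Myc lists, with the number of rows tested in brackets and black bars at the medians. The band spans the quartiles of all features tested, and the members' median of 0.47 lies right of it while that of the Myc network, 0.068, lies inside.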

How the data were processed

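The authors deposited 1 table of FPKM for 25926 features, 1 column per sample, matched to samples by name. The tools named per the submitters' processing notes are Cufflinks and Bowtie 0.12.2, and the build is Rnor_6.0; what each tool did is not given in the sources used here. Per the labels, TRIzol was used for RNA extraction. FPKM holds no counts. Ratios of values under 0.3 FPKM between samples showed no steps of whole reads (at most 0.905% in 1 bin of width 0.01), so depth is unknown and no counting interval is given.

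The 11362 features that averaged 1 FPKM or more were tested as log2(FPKM + 1) with limma 3.58.1 in R 4.3.3 (statmod 1.5.0), using trend and robust moderation, a term for the group alone, 2-sided p and Benjamini-Hochberg adjustment at 0.05 over all of them. This scale understates fold changes of low genes. On data simulated for TPN against Control over 11362 features, the test recovered 31 of 100 genes shifted by 1 (log2) and 92 of 100 shifted by 2, with 8 false calls. Those genes lay above 3 on the log2(FPKM + 1) scale and varied independently. Ratios of means are of FPKM. The members and lists were chosen with earlier results of these data known. Values in every liver are given for members with an unadjusted p under 0.05 or no overlap, Myc and the 2 most abundant of each role. They are also given for up to 2 genes of each further list, those with the smallest unadjusted p among genes without overlap. Nhp2 and Noc4l were added after their values were seen. Alternatives were another pseudocount (0.1), no filter or one of 5 FPKM, median-ratio, quantile and TPM scaling, plain moderation, sample weights, the replicate number as a block, rows summed by symbol, and rats left out. Sequences are from RefSeq (GRCr8). Figures were drawn with matplotlib 3.10.9.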

Additional observations from a re-analysis of the deposited data

How the results depend on the processing

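No member passed limma's test under any alternative run except sample weights, where 5 did: Nop56 (adjusted p = 0.0358), Nolc1 (0.036), Gar1 (0.0448), Nip7 (0.0495) and Rrs1 (0.0498). Those weights were 0.433, 2.28 and 0.375 for TPN 1, 2 and 3, against 1.91, 0.662 and 2.14 for Control 1, 2 and 3. The 28 features called over all genes became 299 with sample weights, 121 with TPN 1 and Control 2 both left out, 58 with the replicate block, 18 with a pseudocount of 0.1, 8 with plain moderation and 6 with a minimum mean of 5 FPKM. They became 0 with limma after median-ratio scaling (627 higher and 952 lower at an unadjusted p under 0.05), after quantile normalisation (764 and 827) and with no filter (671 and 1227). Leaving out 1 rat gave 0 to 46 (0 without TPN 3, with 390 higher and 1003 lower at an unadjusted p under 0.05). The causes were not tested.

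The 15 members above without overlap (8.02% of all features) became 24 after quantile normalisation (11.2%) and 22 after median-ratio scaling (9.57%). They became 19 scaled to TPM (9.4%) and 31 with TPN 1 and Control 2 both left out (24.1%). Leaving out 1 rat gave 15 to 30, against 10.1% to 18.5% of all features. With fewer rats the share rose over all features too. The median log2 fold change of the members stayed between 0.33 and 0.64. Of 585 single-gene values, 573 kept their direction and side of the threshold, 5 passed it and 7 turned sign. Myc became 0.095 with sample weights, and ranged over -0.29 to 0.12 with 1 rat left out. Nhp2 became -0.057 with sample weights, ranged over -0.099 to 0.50 with 1 rat left out and was -0.23 with TPN 1 and Control 2 both left out. Nop10 became -0.001 with sample weights. The labels do not state whether the replicate numbers pair the rats. Deviations of same-numbered rats from their group means correlated at -0.214, -0.143 and 0.321. Those of differently numbered rats correlated at -0.352 to 0.418. Deviations around a mean of 3 rats are tied to each other, so these values cannot decide on a pairing. With the replicate numbers as a block 0 members passed and 14 were higher at an unadjusted p under 0.05, against 4.14% of all features. The unknown depth and 3 rats per group limit what the test can show.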
